A study of Zea mays with 18 samples.

Results

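Roots and shoots of maize (Zea mays) seedlings of the inbred line W22 were compared under sufficient iron, with 3 root and 3 shoot RNA-seq libraries out of 18 in the series. These 6 libraries were chosen by their titles, which give the line, the iron supply and the organ. Per the labels' protocols, wild-type plants grew in hydroponic solution for 12 days, were kept with iron for a further 3 days, and received fresh iron-containing solution 24 hours before roots and shoots were frozen separately. The other 12 libraries come from the same line and organs: deficient plants spent those 3 days and the last 24 hours without iron, and resupplied plants were given 0.1 mM FeSO4-EDTA for the last 24 hours. Each group has 3 biological replicates by its labels, which do not state whether a library is 1 plant or a pool. The p-values thus set differences against the spread between libraries, and whether that is a spread between plants or pools is not known.

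A cereal root takes up water and minerals, and acquires iron by releasing chelators called phytosiderophores and importing the iron they bind. A cereal shoot is largely leaf, where photosynthesis relies on a small number of very strongly expressed nuclear genes for chloroplast proteins, and chloroplasts hold much of the leaf's iron. Organs differ both in which cell types they contain and in what each cell transcribes. In whole organs, more cells of a type and more RNA per cell cannot be told apart. The files give identifiers without gene names, and none of them occurs in the B73 name table used here, so no gene below is given a function and the organ labels could not be checked against known root or leaf markers.

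The 6 libraries held 68995384 to 76861252 estimated counts, with 27447 to 27512 genes having a count in roots and 26946 to 27170 in shoots. Replicates of an organ were close, with Pearson's r across genes of 0.985 to 0.987 between root libraries and 0.988 between shoot libraries on a log2 scale of CPM (counts scaled to a common library size). Between a root and a shoot library r was 0.637 to 0.669. The biological coefficient of variation, the spread between replicates beyond counting noise, was 22.5% in roots and 19.9% in shoots. CPM values below are scaled by TMM, a method that sets libraries level on the bulk of genes, and they are not corrected for gene length.

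Most genes differed between the organs. Of 26739 genes tested, 8460 were called higher in roots and 8061 higher in shoots, where a call is an adjusted p under 0.05 in edgeR's quasi-likelihood test with Benjamini-Hochberg adjustment. Those calls were 61.8% of the genes tested, or 31.6% for roots and 30.1% for shoots. The groups did not overlap, every root library lying on the same side of every shoot library, at 69.9% of the genes tested and at 16396 of the 16521 calls. With libraries scaled by total counts alone, 71.9% of calls were higher in roots against 51.2% here. That scaling places the median gene 0.50 log2 units higher in roots, against 0.03 on the TMM scale, so the balance between organs is relative to the TMM scale.

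**Figure D1:**
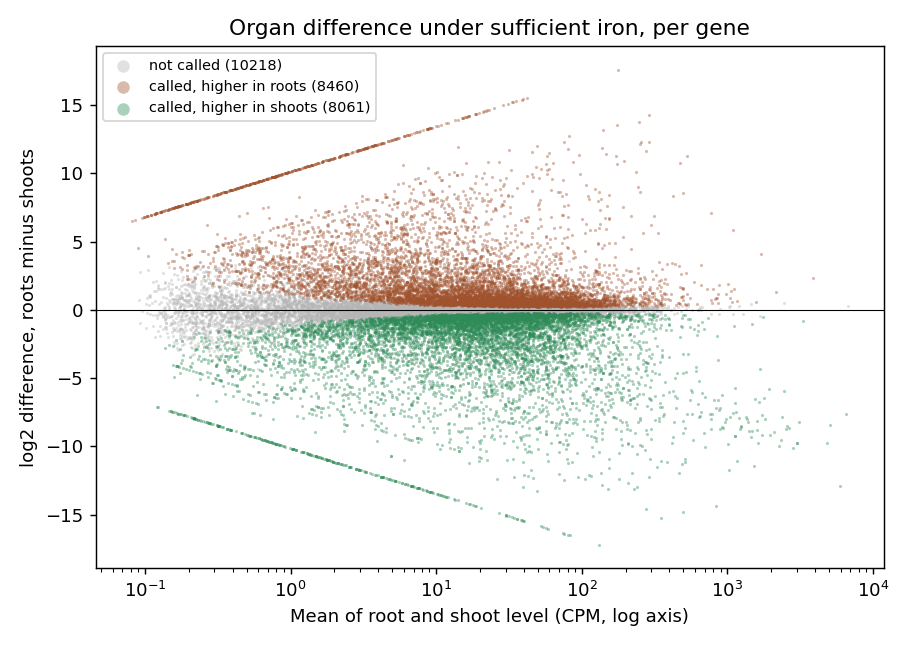
Each point is a gene tested under sufficient iron, with the mean of its root and shoot CPM on a log axis and the fitted log2 difference, roots minus shoots, on the vertical axis. Brown and green points are the 8460 and 8061 genes called higher in roots and in shoots, grey points were not called, and the straight edges are genes with a count of 0 in all 3 libraries of an organ, whose fitted difference has no meaning as a size.

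Large differences were common. Of the calls, 4849 were at least 2-fold higher in roots and 5387 at least 2-fold higher in shoots, or 18.1% and 20.1% of the genes tested. At least 8-fold higher were 2070 genes in roots and 2438 in shoots, or 7.74% and 9.12%. With total-count scaling this order turned, with 2495 genes in roots and 2090 in shoots. The median called difference was 1.25 log2 units for genes higher in roots and -1.64 for genes higher in shoots. A further 6285 calls were under 2-fold. When the test asked for a difference beyond 2-fold, 3810 genes passed as higher in roots and 4431 as higher in shoots.

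Some genes had signal in a single organ. Of the genes at least 8-fold higher in roots, 470 had a count of 0 in all 3 shoot libraries, and of those at least 8-fold higher in shoots 290 had a count of 0 in all 3 root libraries. The floor of 3 counts over the 3 libraries corresponds to 0.0166 CPM in shoots and 0.0125 CPM in roots. All of these genes stayed at least 8-fold apart when the empty organ was set to this floor. Such genes pass the filter for low counts only through the organ with counts, so this outcome is largely built in. Among genes whose mean reached 10 CPM in the other organ, 67 were at 0 in every shoot library and 78 at 0 in every root library. A count of 0 is a limit of this depth and not proof of absence.

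The balance between organs varied with how many counts a gene took. Of the 73 genes averaging 1000 CPM or more over both organs, 53 were called higher in shoots and 11 higher in roots, and their median absolute difference was 7.82 log2 units. Among 1807 genes of 100 to 1000 CPM, 687 were higher in shoots and 623 in roots, with 339 and 75 at least 8-fold apart. From 10 to 100 CPM the calls were 4548 and 4611 of 14070, with 1025 genes at least 8-fold higher in shoots and 544 in roots, and the median absolute difference was 0.54. From 1 to 10 CPM they were 2296 and 2566 of 8087, with 706 genes at least 8-fold higher in shoots and 944 in roots. Under 1 CPM, 477 were higher in shoots and 649 in roots of 2702, and 1576 not called. In that class 319 were at least 8-fold higher in shoots and 505 in roots. Calls thus lay mostly on the shoot side among the 73 most abundant genes, 49 being at least 8-fold higher in shoots and 2 in roots. The classes were set by mean CPM in the same libraries. A gene very high in a single organ can enter an upper class through that organ, so large differences there are partly built in. The limits of every class and the calls in it, those of the 73 genes included, are relative to the TMM scale.

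Counts in shoots were concentrated in fewer genes. The 100 genes with the most counts in each library held 12.4%, 12.1% and 12.8% of root libraries 1, 2 and 3, and 22.9% to 24.3% of the shoot libraries. The means were 12.4 ± 0.39% in roots and 23.5 ± 0.73% in shoots (SD, n = 3), with no overlap (exact two-sided permutation test p = 0.1, the smallest that 3 against 3 allows). The number of genes that together hold the upper 50% of counts was 2102 ± 54.9 in roots and 1147 ± 63.2 in shoots (SD, n = 3; exact permutation p = 0.1). The 10 genes with the most counts held 3.81 ± 0.23% and 6.66 ± 0.24%. When genes were ranked by mean CPM, 14 were among the first 100 of both organs. Between 2022 and 2068 genes reached 100 CPM in shoot libraries and between 1668 and 1736 in root libraries, a comparison that rests on the TMM scale.

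**Figure D2:**
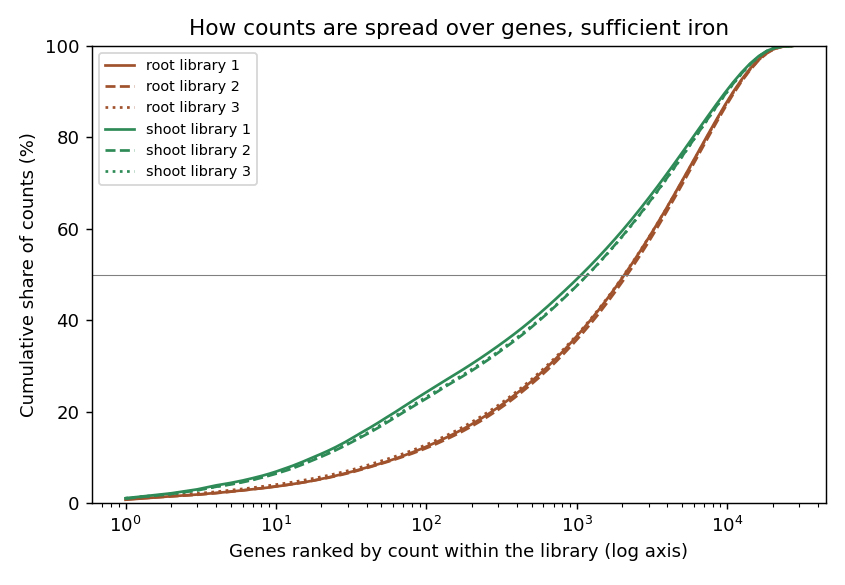
Cumulative share of counts, in percent, against the rank of genes by count in the library on a log axis, for the 3 root (brown) and 3 shoot (green) libraries under sufficient iron. The shoot curves lie above the root curves over the first ranks and pass 50% at a mean of 1147 genes, against 2102 in roots.

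Genes that strongly distinguish the organs filled a large part of the shoot libraries and a small part of the root libraries. The 2438 genes at least 8-fold higher in shoots took 37.8 ± 1.25% of shoot counts (SD, n = 3) and 0.956 ± 0.152% of root counts. The 2070 genes at least 8-fold higher in roots took 8.57 ± 0.0955% of root counts and 0.226 ± 0.0216% of shoot counts. Genes called higher in roots by less than 8-fold made up 41.8 ± 0.126% of root counts and 15.9 ± 0.361% of shoot counts. Genes called higher in shoots by less than 8-fold made up 22.6 ± 0.282% of shoot counts and 15.3 ± 0.154% of root counts. Genes not called took 33.4 ± 0.35% in roots and 23.4 ± 0.646% in shoots. These classes were defined on the same libraries, so their shares are a description. In libraries that did not define them, the shoot class took 30.3 ± 0.741% of deficient and 32.1 ± 1.29% of resupplied shoot counts, and the root class 9.91 ± 0.132% of deficient and 9.12 ± 0.314% of resupplied root counts.

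**Figure D3:**
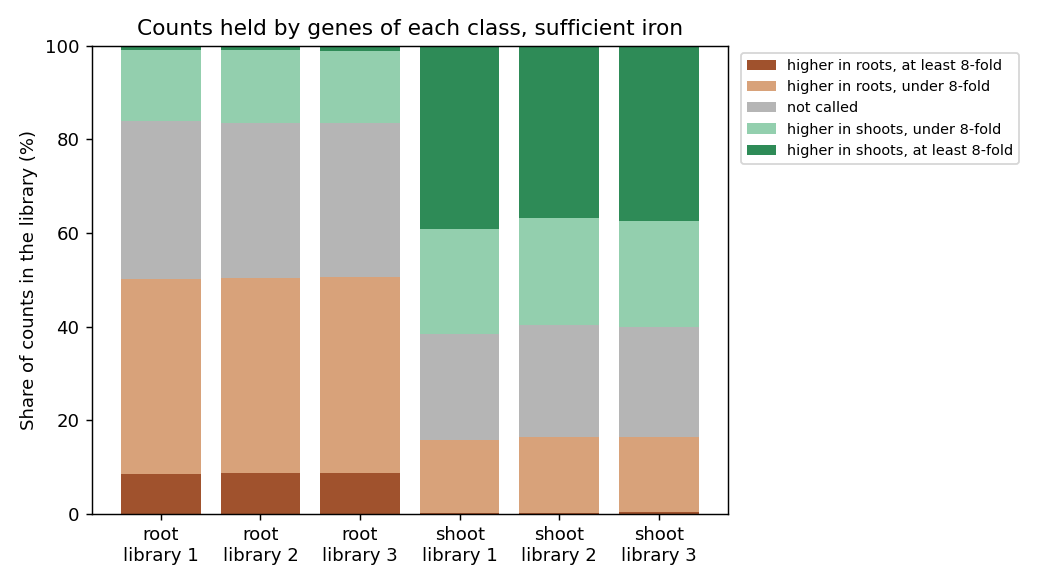
Stacked bars give the share of each sufficient library's counts, in percent, in genes called higher in roots (brown, dark for at least 8-fold), not called (grey) and called higher in shoots (green, dark for at least 8-fold). The dark green part averages 37.8% of the shoot bars and the dark brown part 8.57% of the root bars.

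Lists of abundant genes taken from the 12 iron-treated libraries showed the same contrast in the sufficient ones. Of the 100 genes most abundant by mean CPM in deficient and resupplied shoots, 87 were called higher in sufficient shoots, 4 higher in roots and 9 not called, and 80 were at least 8-fold higher in shoots. Their median difference was -7.79 log2 units, against 0.03 for all genes tested. Of the 100 genes highest in deficient and resupplied roots, 75 were called higher in sufficient roots, 5 higher in shoots and 20 not called, and 27 were at least 8-fold higher in roots. Their median was 1.53 log2 units. Over all genes tested, 30.1% were called higher in shoots and 31.6% higher in roots. At least 8-fold higher were 9.12% in shoots and 7.74% in roots. The shoot list held 24%, 22.8% and 23% of counts in shoot libraries 1, 2 and 3, and 4.58 ± 0.408% in roots (SD, n = 3). The root list held 12.1 ± 0.44% in roots and 4.64 ± 0.221% in shoots. A high level in an organ was the reason for listing these genes, so a bias of each list towards its organ is built in. The difference between both lists was not tested.

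The genes with the largest gaps in CPM show what such genes look like in single libraries. Zm00004b036722 had 13453, 12113 and 13179 CPM in shoot libraries 1, 2 and 3 and 24.4, 39.3 and 134.6 CPM in the root libraries. Its root values varied more than 5-fold while its shoot values lay close together, and the organs were far from overlapping. The log2 difference, roots minus shoots, was -7.64 ± 0.75 (SE, n = 3, edgeR adjusted p = 4.9e-05), and the gene took 1.08% of shoot counts. Without root library 3 the difference was -8.68. Zm00004b032576 had 13138, 11828 and 10478 CPM in shoots and 1.58, 1.68 and 1.35 CPM in roots. Here the root libraries agreed closely, and the difference was -12.93 ± 0.33 log2 units (adjusted p = 7.6e-08).

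On the root side the gaps were smaller. Zm00004b020104 had 6490, 5557 and 7410 CPM in roots and 1396, 1150 and 1264 CPM in shoots. It was abundant in both organs, with no overlap and a log2 difference of 2.33 ± 0.21 (SE, n = 3, edgeR adjusted p = 2.8e-05). Zm00004b038340 had 3318, 3087 and 3229 CPM in roots and 125.0, 143.4 and 282.5 CPM in shoots. Shoot library 3 stood above the other two for this gene, and the difference was 4.10 ± 0.35 (adjusted p = 2.1e-05).

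Not every abundant gene differed. By the 95% interval of the difference, 3949 genes that were not called lay within 0.5 log2 units of equality, and for 11217 genes, called or not, the interval lay within 1 unit. For 3001 genes that were not called the interval reached 1 unit or more, so a 2-fold difference was not excluded there. The most abundant of the 3949 was Zm00004b006636, with 823.9, 854.3 and 1046 CPM in roots and 846.5, 899.4 and 869.4 in shoots. Its log2 difference was 0.04, with a 95% interval of -0.31 to 0.38. The next, Zm00004b030347, had 729.3, 642.1 and 605.7 CPM in roots and 712.4, 699.2 and 583.9 in shoots, a difference of -0.03 with an interval of -0.38 to 0.31. With total-count scaling these differences became 0.51 and 0.45, both called, so their evenness rests on the TMM scale.

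**Figure D4:**
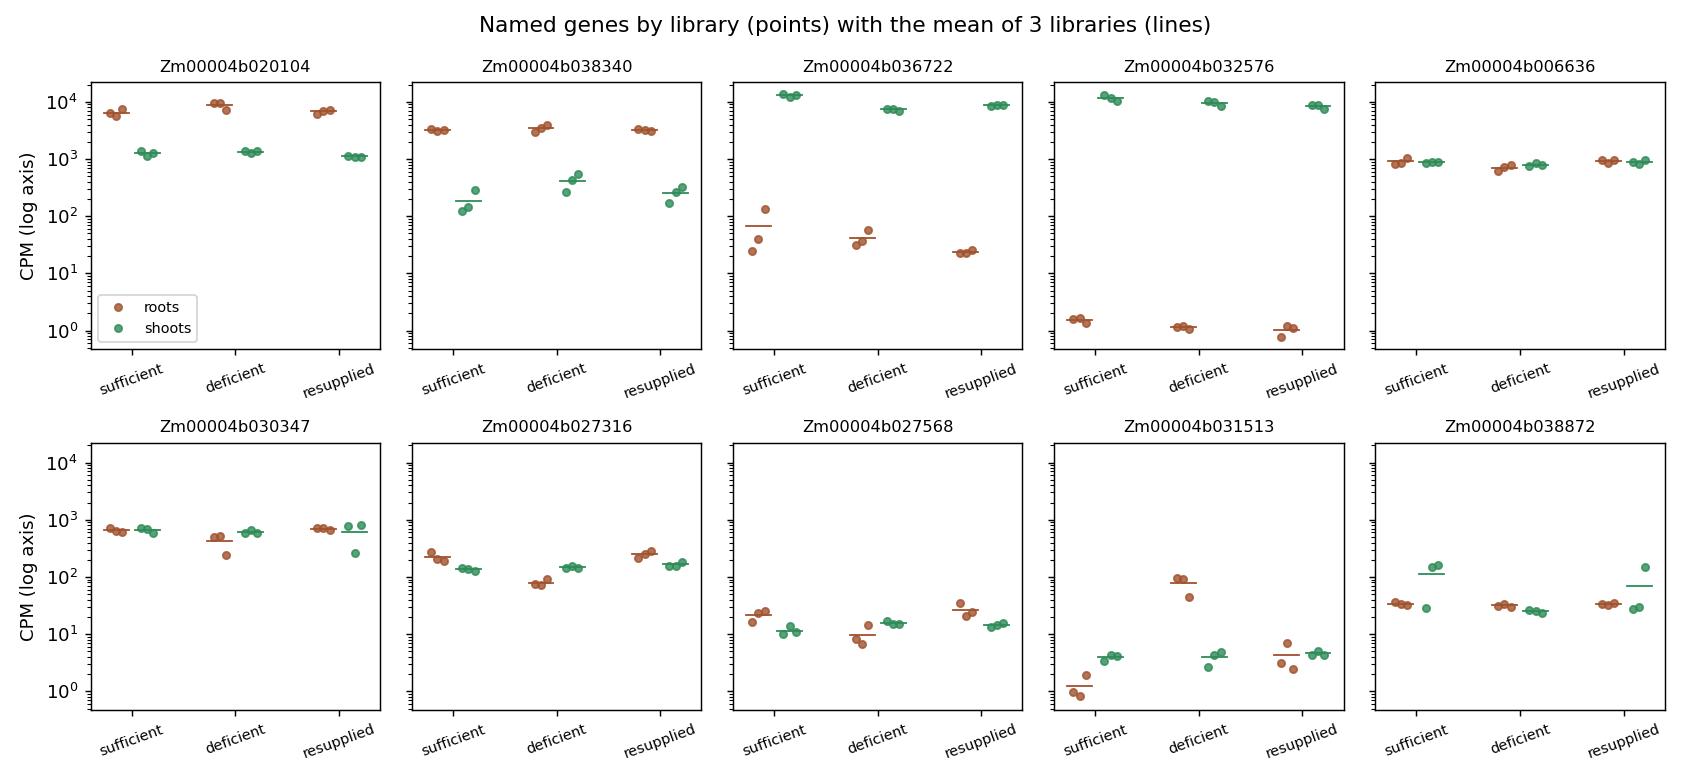
CPM on a log axis of the 10 genes named by rule, by organ (brown roots, green shoots) and iron state, with a point per library and a line at the mean of 3. Zm00004b036722 and Zm00004b032576 lie at 7017 CPM or more in every shoot library, and Zm00004b031513 lies at 45.1 to 97.1 CPM in deficient roots and at 7.10 CPM or less in all other libraries.

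The organ difference found under sufficient iron was present in the other iron states, which share no library with it. In deficient plants 9164 genes were higher in roots and 8753 in shoots of 26913 tested (34.1% and 32.5%, together 66.6%), and in resupplied plants 9164 and 8611 of 26818 (34.2% and 32.1%, together 66.3%). Roots held 51.1% and 51.6% of these calls, against 61.7% and 66.1% with total-count scaling. Of the 8460 genes called higher in sufficient roots, 7501 were also called so in deficient plants, which is 88.7% of the first list and 81.9% of the second. For genes higher in shoots these numbers were 7112, 88.2% and 81.3%. In resupplied plants 7533 of the root genes (89% and 82.2%) and 7102 of the shoot genes (88.1% and 82.5%) were called in the same direction. Of 26330 genes tested in all 3 iron states, 7104 were higher in roots and 6683 higher in shoots in each of them. Across genes, Pearson's r of the log2 differences was 0.949 between sufficient and deficient plants (26488 genes) and 0.946 between sufficient and resupplied plants (26448 genes), a description over genes that are not independent.

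**Figure D5:**
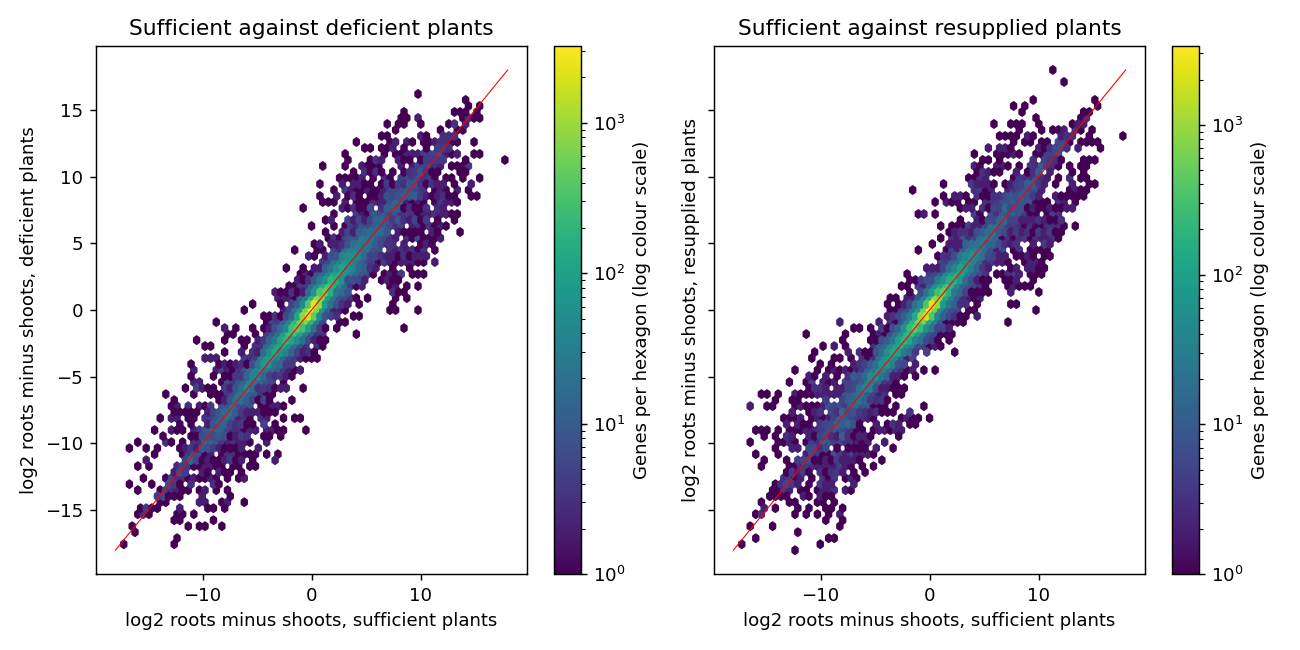
Hexagons count genes by their log2 difference, roots minus shoots, in sufficient plants (horizontal) and in deficient or resupplied plants (vertical), on a log colour scale; the red line marks equal values. Most genes lie along the line, with r of 0.949 and 0.946, and the spread is widest where the differences are large.

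Genes with a strong preference in the iron-treated libraries nearly all had a call in the same direction under sufficient iron. At least 8-fold higher in roots of both deficient and resupplied plants, with at least 10 CPM, were 852 genes, and 851 of them were called higher in sufficient roots against 31.6% of all genes tested, and 784 at least 8-fold higher. Their median difference was 5.30 log2 units. The remaining gene, Zm00004b016768, was singled out after its values were seen: it had 1.64 ± 1.55 CPM in sufficient roots and 0.814 ± 0.138 in sufficient shoots (SD, n = 3; log2 difference 0.99, edgeR adjusted p = 0.24), against 23.7 ± 14.3 in deficient and 77.0 ± 30.3 in resupplied roots. The corresponding 1407 genes of shoots were all called higher in sufficient shoots (30.1% of all genes tested), 1387 of them at least 8-fold, with a median of -5.60. A strong difference between the same organs was the reason for listing these genes, so calls in the same direction are largely built in. All genes tested are not matched to the lists in fold or abundance.

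The same lists give the level of each organ's listed genes in libraries of the other organ. Each gene was listed for being at least 8-fold lower in the other organ of iron-treated plants, so low shares are largely built in. Summed over the 1407 shoot genes, root libraries 1, 2 and 3 held 1.24%, 1.32% and 1.82% of the CPM in sufficient shoots, with 158, 144 and 131 of the genes at 0. The single-gene median was 1.77%, 1.94% and 2.41%. Root library 3 was the highest of the 3 for 778 of the 1407 genes, and it was also the highest for Zm00004b036722, at 1.04% of the shoot level. For Zm00004b032576 it was the lowest, at 0.0115%. Without root library 3, 15441 genes were called between the organs, and 2575 were at least 8-fold higher in shoots. The 852 root genes held 3.91%, 3.83% and 4.43% of their root CPM in shoot libraries 1, 2 and 3. In these libraries 178, 185 and 103 of the genes were at 0, and shoot library 3 was the highest for 361. For neither list is the matching share over all genes given here. The part of the other organ's signal in the organ differences was not tested.

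Genes that responded to iron had uneven positions in the untreated organ contrast. The lists come from resupplied against deficient plants, so no sufficient library took part in choosing them. In roots 476 genes were lower on resupply (1.82% of 26147 tested), and 468 of them were tested here. Of these, 317, or 67.7%, were called higher in sufficient roots and 73, or 15.6%, higher in shoots, against 31.6% and 30.1% of all genes tested. Their median difference was 1.49 log2 units, with an interquartile range of 0.29 to 3.14. Of the 468, 123 were at least 8-fold higher in roots, against 7.74% of all genes tested. The 351 genes higher on resupply in roots (1.34%) had 174 of 349 higher in roots (49.9%), 92 higher in shoots (26.4%) and a median of 0.37. With DESeq2 that list had 1110 genes and a median of 0.11, and the list of genes lower on resupply 1043.

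The lists from shoots leaned to shoots in both directions of response. Of 1332 tested genes that were higher in resupplied than in deficient shoots (1336 listed, 5.15% of 25963), 725, or 54.4%, were called higher in sufficient shoots and 269, or 20.2%, higher in roots. Their median was -0.59, and 386 were at least 8-fold higher in shoots. Of 1186 tested genes lower on resupply (1188 listed, 4.58%), 678, or 57.2%, were higher in sufficient shoots and 302, or 25.5%, higher in roots. Their median was -0.77, and 260 were at least 8-fold higher in shoots. Over all genes tested, 30.1% were called higher in shoots, 31.6% higher in roots and 9.12% at least 8-fold higher in shoots. A gene must be detected in an organ to be called there, and abundance was not matched between the lists and all genes, so the part of detection in these shares was not tested.

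Opposite organ differences in sufficient and deficient plants were rare. There were 34 genes called in opposite directions in these states, and 33 between sufficient and resupplied plants, out of 26488 and 26448 genes tested in both states. Of the 34, 28 reached 10 CPM in some group, 11 of them higher in roots and 17 higher in shoots under sufficient iron, with a median absolute difference of 0.50 log2 units. A single one was at least 2-fold apart in both states. That gene, Zm00004b031513, had 0.955, 0.824 and 1.89 CPM in sufficient roots and 3.41, 4.24 and 4.13 in sufficient shoots, a log2 difference of -1.71 ± 0.36 (SE, n = 3, edgeR adjusted p = 0.0038). In deficient plants it had 97.1, 91.4 and 45.1 CPM in roots and 2.61, 4.33 and 4.85 in shoots, a difference of 4.31 ± 0.36 (adjusted p = 1.6e-05). Its shoot values overlapped between the states while its root values did not.

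Zm00004b027316 had 273.2, 205.0 and 191.0 CPM in sufficient roots against 141.2, 139.0 and 125.5 in sufficient shoots, a log2 difference of 0.70 ± 0.15 (SE, n = 3, edgeR adjusted p = 0.0041). In deficient plants the roots had 74.0, 71.5 and 90.3 CPM and the shoots 144.2, 154.2 and 144.5, a difference of -0.91 ± 0.10 (adjusted p = 0.00011). The shoot level was similar in both states and the root level was lower in deficient plants. Zm00004b027568, at 21.8 ± 4.81 CPM in sufficient roots and 11.6 ± 2.07 in sufficient shoots (SD, n = 3), had a log2 difference of 0.89 ± 0.19 (adjusted p = 0.0042) and of -0.69 ± 0.26 in deficient plants (adjusted p = 0.046). Leaving out any one of 5 of the 6 deficient libraries ended the second call, the exception being root library 3. Total-count and upper quartile scaling ended it too, at -0.47 (edgeR adjusted p = 0.149) and -0.59 (adjusted p = 0.081).

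Zm00004b038872 differed among the shoot libraries themselves. It had 29.2, 150.8 and 163.0 CPM in sufficient shoots and 35.9, 33.2 and 31.8 in sufficient roots, so the organs overlapped, with a log2 difference of -1.79 ± 0.53 (SE, n = 3, edgeR adjusted p = 0.019). In deficient shoots all 3 libraries were low, at 26.7, 25.5 and 23.5 CPM (difference 0.33 ± 0.10, adjusted p = 0.014, but 0.0583 without shoot library 3 and 0.612 in the fit of all 18 libraries), and in resupplied shoots 2 were low, at 27.5 and 30.3, and one high, at 148.6. No shoot value of this gene lay between 30.3 and 148.6 CPM. Without sufficient shoot library 2 or 3, or without root library 2 or 3, the call was lost (edgeR adjusted p = 0.0601, 0.0669, 0.0588 and 0.0533).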

How the data were processed

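The authors deposited a table of estimated counts for 40690 genes per library; per the submitters' processing notes the tools were Trim Galore, HISAT2, StringTie and DESeq2, while the build and the annotation were not stated there. All values were whole, so rounding changed none of them, and 29.3% to 32.3% of values from 1 to 40 in the sufficient libraries were multiples of 4. The authors' deposited comparison tables set iron states against each other and were not used. Each organ contrast was fitted on its own 6 libraries with edgeR 4.0.16 in R 4.3.3 (filterByExpr, TMM, quasi-likelihood F-test, adjusted p under 0.05). DESeq2 1.42.0 was an alternative, as were other scalings and filters, counts divided by 4, a robust fit, a replicate block, and each library left out. Differences of organ differences between iron states were tested in 1 fit of all 18 libraries. Scripts were tested on simulated data with 200 changed genes of 26608. There 56% of 2-fold and 86% of 4-fold changes were recovered, and 7.79% of 154 calls fell on unchanged genes. Far fewer genes were changed there than were called here, so the simulation does not give the error rate of these calls. Intervals and floors cover counting and library spread only.

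Named genes were the 2 called genes with the largest gap in mean CPM in each direction, the 2 most abundant uncalled genes whose 95% interval lay within 0.5 log2 units of 0, and the 2 in each direction with the largest summed differences among genes called in opposite directions in sufficient and deficient plants at 10 CPM or more. Members, lists and rules were chosen with earlier results of these data known. None of the 40690 identifiers matched the 49888 genes of the B73 table.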

Additional observations from a re-analysis of the deposited data

Results flagged for a closer look

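Of 4 genes named for opposite calls, 3 had an organ difference that itself differed between deficient and sufficient plants, in edgeR's quasi-likelihood test of the difference with Benjamini-Hochberg adjustment over 27914 genes, of which 608 passed. The tests are not independent of the choice of these genes. Roots minus shoots, deficient minus sufficient, the change was 5.99 ± 0.57 log2 units (SE) for Zm00004b031513 (adjusted p = 6.6e-05). It was -1.63 ± 0.19 for Zm00004b027316 (adjusted p = 0.00027). It was -1.61 ± 0.35 for Zm00004b027568 (adjusted p = 0.0286), and leaving out any one of 7 of the 12 libraries ended that call, with adjusted p from 0.052 to 0.0771. For the other gene, Zm00004b038872, the change was 2.10 ± 0.79 log2 units (SE, adjusted p = 0.187) and did not pass.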

How the results depend on the processing

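With total-count scaling 14082 genes were higher in sufficient roots, the shares of counts in genes at least 8-fold higher became 10.5% (roots) and 35.9% (shoots), and list medians became 0.25 and -0.82 (higher on resupply in roots and shoots) and -0.56 (lower in shoots). Upper quartile scaling gave a root share of 9.09%. Leaving out each library gave 8.49% to 8.72% and 37.7% to 38.0% for these shares, and 15318 to 15634 calls. A test against a 2-fold difference, chosen after seeing the data, called 8241 genes (3810 and 4431) in sufficient, 8806 (4333 and 4473) in deficient and 8437 (4107 and 4330) in resupplied plants, fewer by construction. DESeq2 listed 1110 genes higher and 1043 lower on resupply in roots, with medians of 0.11 and 1.25. Its list of genes higher on resupply in shoots had a median of -0.49. The root-preferring list grew to 1344 genes at 4-fold and 1612 at 1 CPM. Deviations of same-numbered root and shoot libraries correlated at -0.08, -0.09 and 0.03, and those of differently numbered ones at -0.06 to 0.14. With 3 libraries per organ this cannot exclude that the numbers pair the samples. With a replicate block 15169 genes were called. Signs turned for small differences. Zm00004b030347 moved to 0.45 (total counts) and 0.14 (upper quartile) and ranged from -0.12 to 0.025 with a library left out, or -0.20 to 0.40 in resupplied plants. Zm00004b006636 ranged from -0.074 to 0.11 and was 0.035 in deficient plants by total counts. In resupplied plants Zm00004b031513 moved to 0.21 (total counts) and 0.0086 (upper quartile) and ranged from -0.69 to 0.17, and Zm00004b038872 from -1.43 to 0.18. The deficient-minus-sufficient difference of Zm00004b036722 was -0.084 by total counts and ranged from -0.26 to 1.19, the last without sufficient root library 3 (edgeR adjusted p = 0.0433). Resupplied minus sufficient, Zm00004b006636 moved to -0.13 (total counts) and -0.023 (upper quartile), and Zm00004b027568 to 0.013 (RLE), 0.011 (DESeq2) and 0.0025 (replicate block). Zm00004b038872 also lost its sufficient call by total counts, a robust fit and the replicate block (edgeR adjusted p = 0.0542, 0.0607 and 0.0831). Except where a value above shows it, the cause was not tested.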

Other observations

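Single libraries seldom stood apart from their replicates at abundant genes, by limits chosen after seeing the data. A library was counted as apart where it lay at least 4-fold above or below both others, these lying within 1.5-fold of each other, with 0.1 CPM added to each value. Among 15418 genes reaching 10 CPM in a sufficient root library, library 3 was above both others for 8 genes, library 1 for 2 and library 2 for 0. Among 15923 genes of sufficient shoots, no library was above both others for more than 1 gene, and each was below them for 3.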
